A study of Homo sapiens with 18 samples.

Results

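Translation initiation factors (eIFs) bring the ribosome, the initiator tRNA and the mRNA together at the start codon, and elongation factors (eEFs) carry aminoacyl-tRNA to the ribosome and move it along the message. The genes described here were chosen by symbol alone: every line of the gene count table whose symbol began with EIF1 to EIF6, EEF1 or EEF2, leaving out the 4 eIF2 kinases EIF2AK1 to EIF2AK4 and every symbol ending in P and digits, which marks pseudogenes. This gave 69 genes of 58870, of which 65 were annotated as protein coding. The ending also removed EIF4EBP1, EIF4EBP2 and EIF4EBP3, which are not pseudogenes and are covered below with the regulators of cap binding. The 69 genes include the factors and their subunits, 7 enzymes that modify elongation factors, and a few genes that share the prefix without being factors, such as antisense and divergent transcripts.

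HEK293T cells, a transformed human embryonic kidney line, were transfected with all-in-one plasmids that carried a base editor and a guide RNA, which changes single bases at the guide's target. The guide was directed either at a splice site of exon 7 of NRF1, a transcription factor of GC-rich promoters, so that the exon is skipped, or at an intergenic site as the control. The SaABE groups received ABE8e, an adenine deaminase, on the Cas9 nickase of Staphylococcus aureus. In SpABE the same deaminase sat on the nickase of Streptococcus pyogenes, and SpCBE joined the cytosine deaminase evoCDA1 to that second nickase. For each library, 750000 cells were transfected, puromycin selection ran for 48 h in every group, controls included, and RNA was taken at 72 h. There were 3 libraries for each editor and guide, 18 in all. The cells were transfected populations and not clones, so edited and unedited cells contribute to each library.

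Initiation on most mRNAs starts with eIF4E at the cap, eIF4G as the scaffold and eIF4A as the helicase, while eIF2 with GTP delivers the initiator tRNA to a small subunit that carries eIF3, eIF1 and eIF1A. eIF2 leaves as the GDP form and is recharged by eIF2B, the exchange factor whose inhibition limits initiation in the integrated stress response. Many mRNAs of elongation factors and of eIF3 subunits belong to the TOP class: they start with a cytosine followed by a run of pyrimidines, a 5′ terminal oligopyrimidine tract through which mTOR signalling sets their translation along with that of ribosomal protein mRNAs.

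The first bases of 11 of these transcripts are shown as examples of starts with and without a run of pyrimidines, and were picked for that and for their change. Of the 13 tested members with such a start 10 rose, and EIF3D, EIF4A2 and EIF2S3B did not pass. Among the members without it 18 rose, and 5 of the 7 members that fell had a listed promoter, since none was matched for EEF1A2 and EIF2S2. Each window holds 10 bases before and 20 bases from the annotated start on, and the capitals mark a run that begins with C at the start and goes on with at least 4 further bases that are each C or T.
EEF1A1: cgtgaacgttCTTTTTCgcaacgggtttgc
EEF2: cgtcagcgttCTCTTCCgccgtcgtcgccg
EEF1B2: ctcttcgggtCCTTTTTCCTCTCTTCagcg
EIF4B: tcatccgggtCTTTTgcgttctctttccct
EIF3F: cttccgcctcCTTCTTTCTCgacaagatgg
EIF3K: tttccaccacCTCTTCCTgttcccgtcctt
EIF2A: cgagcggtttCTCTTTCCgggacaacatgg
EIF2S3: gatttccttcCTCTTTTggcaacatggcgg
EIF2B5: cagcttccttgcggaagtggtgaccgtgag
EIF4E2: agcggaagtcactccctgaggcagtggcga
EIF4G1: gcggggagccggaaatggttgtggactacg

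The windows come from RefSeq promoters on GRCh38.p14, read along each gene's own strand. The windows on the minus strand are EEF1A1 at chr6:73521013-73521042 and EEF2 at chr19:3985444-3985473. On the plus strand, EEF1B2 lies at chr2:206159885-206159914, EIF4B at chr12:53006446-53006475, EIF3F at chr11:7987327-7987356 and EIF3K at chr19:38619178-38619207. EIF2A at chr3:150546777-150546806 and EIF2S3 at chrX:24054946-24054975 also carry the run. EIF2B5 at chr3:184135348-184135377, EIF4E2 at chr2:232550679-232550708 and EIF4G1 at chr3:184314596-184314625 do not, nor does any other start listed for these 3 genes. The first 8 genes rose with the NRF1 guide and the last 3 fell, as given below.

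NRF1 itself binds a GC-rich element. Its letters, GCGCA, then C or T, then GCGC, were searched on both strands over 250 bases before to 50 bases after each start, and are in capitals in the windows below, shown because these are the 3 members that hold them.
EIF3K: tggcgcgaatGCGCACGCGCcaattgcgcc
EIF2A: ccctagatttGCGCGTGCGCgtttgggcgc
EIF4H: gtgcgcgcgcGCGCGTGCGCgtgcctgcgt

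They lie at chr19:38619041-38619070, chr3:150546618-150546647 and chr7:74174239-74174268 (GRCh38.p14, plus strand), 137, 159 and 107 bases before the start of EIF3K, EIF2A and EIF4H. RefSeq promoters were matched for 57 of the 69 genes. The element was present in 2.77% of all 35116 promoters listed, a share by promoter. By gene, with any start counted, 3 of the 52 tested members with a promoter held it. So did 691 of the 11587 tested genes with a listed promoter.

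Libraries held 28101094 to 40687447 estimated counts. NRF1, the targeted gene, was not lowered: it lay at 24.4 to 33.1 CPM (read counts relative to the TMM-scaled size of the library) in the 9 intergenic-guide libraries and 35.7 to 43.8 CPM in the 9 NRF1-guide libraries, and gene counts do not show whether exon 7 was skipped. Of the HEK293 markers, all 7 were measured, with a summed level of 978 to 1120 CPM under the intergenic guides and 942 to 1100 CPM under the NRF1 guides. The 4 blood markers summed to at most 0.207 CPM and the 2 endothelial markers to at most 0.306 CPM in any library. The 4 fibroblast markers, at 14.8 to 22.2 CPM, and the 2 epithelial markers, at 7.70 to 13.7 CPM, were low with both guides. Single markers moved over all 3 editors: of the HEK293 list NEFL fell by 0.36 and KRT8 fell by 0.15 on the log2 scale, and LIN28B rose by 0.06 (edgeR adjusted p = 6.1e-11, 0.00325 and 0.0437). The epithelial marker CDH1 fell by 0.34 and the fibroblast marker COL1A1 fell by 0.18 (edgeR adjusted p = 0.00013 and 0.000411). The part of these shifts in the results was not tested.

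The comparison over all 3 editors asked what the NRF1 guide did to the factors, with 9 NRF1-guide libraries set against 9 intergenic-guide libraries and the editor as a term of the model. Most factor mRNAs were slightly more abundant with the NRF1 guide, and a short list that includes the catalytic subunits of eIF2B and the cap-binding repressor EIF4E2 was less abundant. Of the 64 members that passed the filter on low counts, 35 rose and 7 fell at an adjusted p under 0.05, while 22 did not pass. Adjusted p values throughout are Benjamini-Hochberg values over all 17743 genes tested with edgeR's quasi-likelihood test. Among all tested genes 20.6% rose and 18.8% fell, against 54.7% and 10.9% of the members. The changes were small: the median log2 fold change was 0.08 for members and 0.01 for all tested genes, and values that passed ran from -0.35 for EIF2B5 to 0.33 for EEF1AKMT1.

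No member was called, that is, passed an adjusted p under 0.05 with an absolute log2 fold change over 0.5, a rule that 5.5% of all genes met. In edgeR 45 members had an unadjusted p under 0.05 and none of them was past the fold, and DESeq2 called 0 as well, with 37 higher and 7 lower. Without scaling beyond the total counts 29 members rose and 8 fell. That setting moved the share of higher among all genes that passed from 52.3% to 39.6%, so the balance among all genes depends on scaling. Without the editor term 17 members rose and 4 fell.

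**Figure D1:**
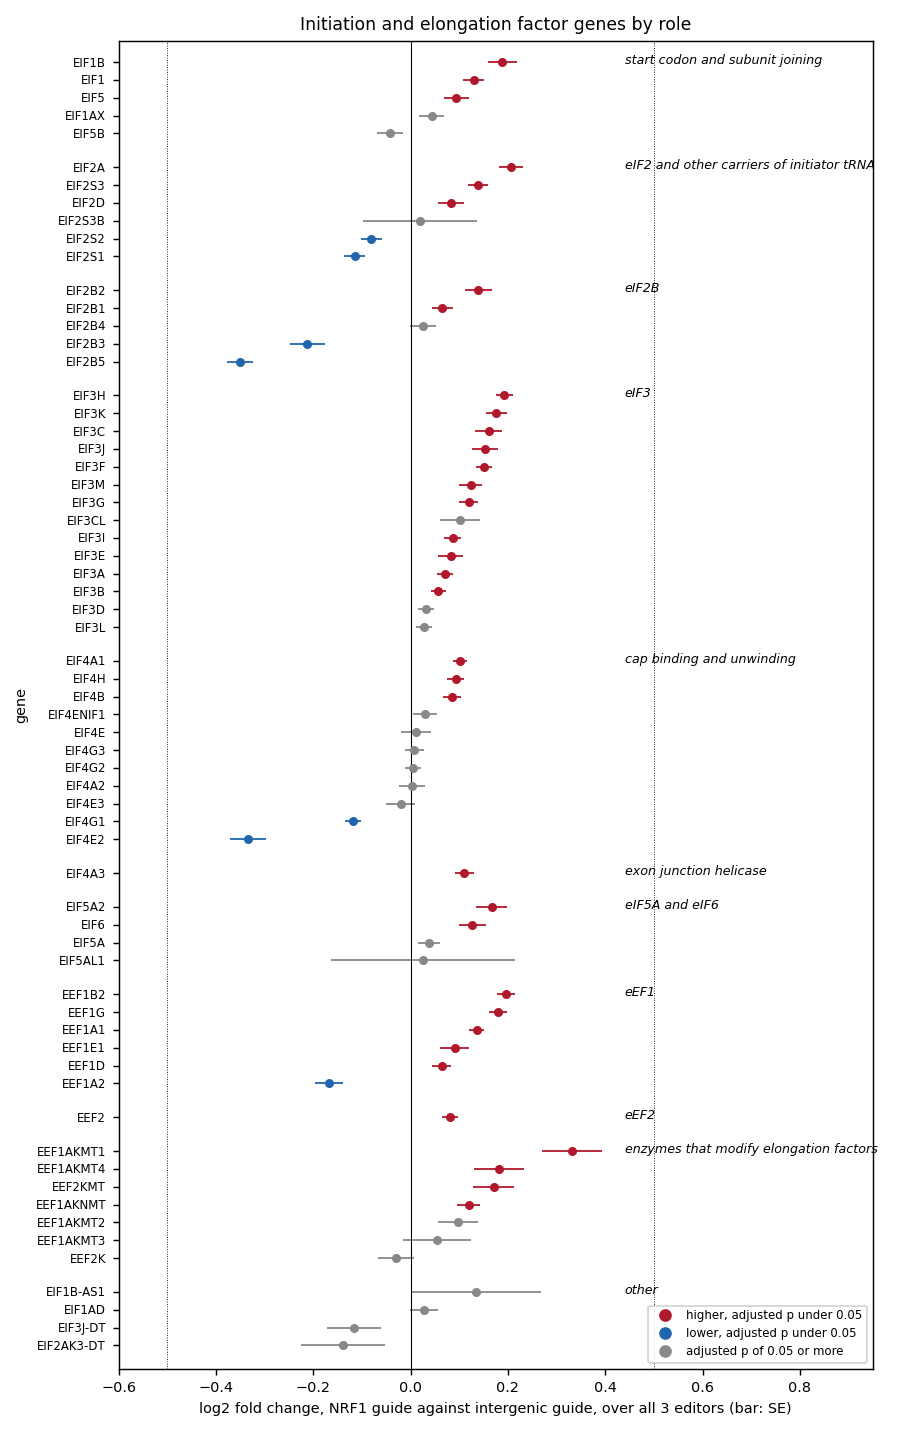
Log2 fold change with the NRF1 guide against the intergenic guide over all 3 editors (x axis) for the 64 tested genes (y axis), grouped by role, with bars for the SE, red for higher and blue for lower at an adjusted p under 0.05 and dotted lines at a log2 fold change of 0.5 in either direction. The 35 red and 7 blue points all lie inside the dotted lines, with EIF2B5 and EIF4E2 farthest to the left.

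In 14 members the NRF1-guide libraries were all above the controls of the same editor, in each of the 3 editors, and in 4 members they were all below. These are 21.9% and 6.25% of the tested members, against 6.24% and 8.99% of all tested genes. Over the 9 against 9 libraries with no regard to the editor, EEF1G and EIF3K lay wholly above and EIF2B5 and EIF4E2 wholly below. All genes gave 1.44% and 5.25% by that measure, against 3.12% in each direction here. In each single editor by its own test, 10 members rose in all 3 editors: EEF1A1, EEF1B2, EEF1G, EIF2A, EIF3F, EIF3G, EIF3H, EIF3K, EIF4A1 and EIF5A2. EIF2B5, EIF4E2 and EIF4G1 fell in all 3. Any other member that passed over all 3 editors together did not pass in at least 1 editor taken alone. How many of all tested genes passed in all 3 editors was not counted.

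Among the factors that select the start codon and join the subunits, 3 of 5 tested members rose and none fell. The share that rose was 60%, against 20.6% of all tested genes. In single editors it was 80% in SaABE, 40% in SpABE and 20% in SpCBE, against 16.9%, 15.4% and 11% of all tested genes. EIF1 keeps the scanning ribosome open until a start codon is found, and its level was 872 to 1006 CPM with a median of 903 under the intergenic guides and 877 to 1164 CPM with a median of 1013 under the NRF1 guides. The ranges overlapped across editors, and with the editor as a term EIF1 rose by 0.13 (SE 0.021, edgeR adjusted p = 2.71e-05). The values were 0.18 in SaABE, 0.18 in SpABE and 0.03 in SpCBE, where EIF1 did not pass (edgeR adjusted p = 0.414). EIF1B, its close paralog, rose by 0.19 with an SE of 0.030 (edgeR adjusted p = 1.95e-05). EIF5, the factor that makes eIF2 hydrolyse its GTP, rose by 0.09 (edgeR adjusted p = 0.00589). It was at 0.21 in SaABE and 0.08 in SpABE, but at -0.008 in SpCBE, where it did not pass (edgeR adjusted p = 0.889). EIF1AX, one of the genes for eIF1A, had a log2 fold change of 0.04 with an adjusted p of 0.192 in edgeR, and EIF5B, the GTPase of subunit joining, had -0.04. In a single editor EIF1AX passed in SaABE, at 0.12, and EIF5B in SpABE, at -0.13 (edgeR adjusted p = 0.0116 and 0.00674). EIF1AY was not tested.

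The 3 subunits of eIF2 did not move together. EIF2S1 encodes the alpha subunit, whose phosphorylation by the eIF2 kinases blocks recycling, and lay at 149, 164 and 161 CPM in the SaABE intergenic libraries and 143, 138 and 137 CPM in the SaABE NRF1 libraries. In SpABE cells the levels were 181.5, 181.3 and 180.6 CPM against 168, 167 and 166 CPM. In SpCBE cells they were 167, 173 and 165 CPM against 164, 161 and 163 CPM. The NRF1-guide libraries were lower with no overlap in each editor, and over all 3 editors EIF2S1 fell by 0.12 on the log2 scale with an SE of 0.021 (edgeR adjusted p = 0.000113). In SpCBE alone its value of -0.05 did not pass (edgeR adjusted p = 0.228). Without the editor term EIF2S1 did not pass either (edgeR adjusted p = 0.114). EIF2S2, the beta subunit, fell by 0.08 (edgeR adjusted p = 0.00464). Of the single editors it passed only in SpABE, at -0.15 (edgeR adjusted p = 0.000486). It was at -0.02 in SaABE and -0.07 in SpCBE. A gene on the opposite strand, RALY, overlaps EIF2S2 with 61.1% as many counts, and whether the counting used strand is not given in the sources used here.

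EIF2S3, the gamma subunit that binds GTP and the tRNA, rose. Its levels were 381, 409 and 392 CPM in SaABE intergenic libraries and 454, 444 and 452 CPM in SaABE NRF1 libraries. In SpABE cells the 3 intergenic libraries had 453, 470 and 451 CPM and the NRF1 libraries 478, 473 and 470 CPM, and with SpCBE the values were 393, 393 and 384 CPM against 443, 441 and 438 CPM. The groups overlapped in SpABE and were apart in SaABE and SpCBE. Over all 3 editors it rose by 0.14 (SE 0.021, edgeR adjusted p = 8.7e-06). Its retrocopy EIF2S3B, which shares 8.25% of its 100-base stretches with EIF2S3, stayed under 4 CPM in every library and had a log2 fold change of 0.02 (edgeR adjusted p = 0.919).

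EIF2A can bring initiator tRNA to certain start codons apart from eIF2, and it rose with the NRF1 guide. Its levels ranged from 123 to 153 CPM with a median of 139 under the intergenic guides and from 142 to 173 CPM with a median of 162 under the NRF1 guides. The libraries of the guides were apart within every editor but not across editors, and EIF2A rose by 0.21 (SE 0.024, edgeR adjusted p = 1.61e-07). Its start carries both the pyrimidine run and the NRF1 element shown above. SERP1 overlaps it on the opposite strand with 121% as many counts, so the source of these reads cannot be told apart without strand. EIF2D, another tRNA carrier, rose by 0.08 (edgeR adjusted p = 0.0175).

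In eIF2B both catalytic subunits fell, while 2 of the 3 subunits of the regulatory core rose. By share 40% of the 5 genes rose and 40% fell, against 20.6% and 18.8% of all tested genes. EIF2B5 encodes the epsilon subunit, which holds the exchange activity, and its levels were 40.99, 42.5 and 41.2 CPM in the SaABE intergenic libraries against 31.2, 30.1 and 30.8 CPM in the SaABE NRF1 libraries. With SpABE they were 42.3, 41.6 and 44.7 CPM against 35.3, 34.5 and 33.4 CPM. With SpCBE they were 41.4, 44.4 and 40.6 CPM against 34.5, 33.7 and 34.1 CPM. None of the 9 libraries with the NRF1 guide reached the lowest of the 9 controls. EIF2B5 fell by 0.35 on the log2 scale over all 3 editors with an SE of 0.027 (edgeR adjusted p = 1.47e-10), with -0.44 in SaABE, -0.32 in SpABE and -0.31 in SpCBE.

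EIF2B3, the gamma subunit that forms the catalytic subcomplex with epsilon, fell by 0.21 with an SE of 0.036 (edgeR adjusted p = 4.29e-05). Its SpABE levels were 45.5, 45.9 and 44.3 CPM with the intergenic guide and 34.8, 34.8 and 37.5 CPM with the NRF1 guide. In SaABE cells they were 32.6, 36.5 and 31.1 CPM against 27.999, 30.8 and 29.1 CPM, and with SpCBE 42.5, 44.6 and 44.4 CPM against 39.8, 42.6 and 40.0 CPM. The guides overlapped in SpCBE, where the fold change of -0.10 did not pass (edgeR adjusted p = 0.125). The SaABE intergenic controls were themselves lower than the other controls, with a log2 difference of -0.44 from SpABE and of -0.39 from SpCBE (edgeR adjusted p = 1.9e-07 and 8.88e-07).

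Of the subunits of the regulatory core, EIF2B2, the beta subunit, rose by 0.14 (edgeR adjusted p = 0.000307) and EIF2B1, the alpha subunit, rose by 0.07 (edgeR adjusted p = 0.0231). EIF2B4, the delta subunit, had a log2 fold change of 0.03 (edgeR adjusted p = 0.507), and passed only in SpABE, at 0.11 (edgeR adjusted p = 0.0307). The EIF2B2 levels were highest in the SpABE NRF1 libraries, at 107, 111 and 109 CPM against 92.2, 87.4 and 92.8 CPM in their controls. EIF2B1 no longer passed when any of 3 SaABE libraries was left out, with log2 fold changes of 0.055 to 0.058 and adjusted p values of 0.0511 to 0.0523 in edgeR. The same held with the replicate number as a block (0.066, edgeR adjusted p = 0.0567), without scaling (0.039, edgeR adjusted p = 0.146) and without the filter on low counts (0.067, edgeR adjusted p = 0.0501). DDX55 and GTF2H3 overlap EIF2B1 on the opposite strand with 48.6% and 63.1% as many counts.

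eIF3, the largest initiation factor and the platform between the small subunit and eIF4G, was the role with the most members, and 11 of its 14 genes rose while none fell. That is 78.6%, against 20.6% of all tested genes. The median log2 fold change was 0.11 against 0.01 for all genes. EIF3H lay at 241 to 308 CPM with a median of 273 under the intergenic guides and 274 to 362 CPM with a median of 313 under the NRF1 guides. It rose by 0.19 with an SE of 0.018 (edgeR adjusted p = 3.18e-09).

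EIF3K, a small subunit outside the conserved core, had 117, 124 and 118 CPM in the SaABE intergenic libraries and 143, 143 and 138 CPM with the NRF1 guide. Its SpABE values were 129, 133 and 128 CPM against 142, 142 and 138 CPM, and its SpCBE values were 118, 122 and 125 CPM against 141, 135 and 138 CPM. All NRF1-guide libraries were above all intergenic-guide libraries, and EIF3K rose by 0.18 (SE 0.021, edgeR adjusted p = 3.63e-07).

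EIF3F, which carries an MPN domain, rose by 0.15 (edgeR adjusted p = 7.25e-08), and EIF3G, an RNA-binding subunit of the scanning module, rose by 0.12 (edgeR adjusted p = 3.08e-05). The other risers of eIF3 ran from 0.06 for EIF3B to 0.16 for EIF3C. The 3 that did not pass were EIF3CL, EIF3D and EIF3L, at 0.10, 0.03 and 0.03. EIF3CL is a near copy of EIF3C, with 95.01% of its 100-base stretches shared, so the split of reads between these genes is uncertain. The intergenic controls also differed in this group, since 10 of the 14 genes were lower in SaABE than in SpABE controls, or 71.4% against 19.1% of all genes.

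Among the genes for cap binding and unwinding 3 of 11 rose and 2 fell, or 27.3% and 18.2%, near the 20.6% and 18.8% of all tested genes. EIF4E2, also known as 4EHP, binds the cap without recruiting eIF4G and acts as a repressor. Its levels were 84.3, 80.1 and 85.0 CPM in the SaABE intergenic libraries and 56.5, 57.3 and 56.2 CPM in the SaABE NRF1 libraries. With SpABE they were 87.0, 86.5 and 87.9 CPM against 70.8, 71.5 and 69.5 CPM. With SpCBE they were 82.0, 84.6 and 83.9 CPM against 74.4, 75.0 and 74.5 CPM. The SaABE and SpCBE controls overlapped and the SpABE controls were a little above both, with no test between controls passing for EIF4E2, while the NRF1-guide libraries were ordered without overlap from SaABE, the lowest, to SpCBE. Over all 3 editors EIF4E2 fell by 0.33 with an SE of 0.038 (edgeR adjusted p = 1.21e-07).

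The main cap-binding protein EIF4E lay at 97.0 to 123 CPM and 104 to 120 CPM under the intergenic and NRF1 guides and had a log2 fold change of 0.01 (edgeR adjusted p = 0.810). By editor it was 0.12 in SaABE, where EIF4E passed (edgeR adjusted p = 0.0286), -0.09 in SpABE and 0.01 in SpCBE. EIF4E3, a minor relative, had -0.02 (edgeR adjusted p = 0.622), and passed only in SpABE, at -0.12 (edgeR adjusted p = 0.0347). EIF4G1, the main scaffold, had 845, 838 and 860 CPM in SaABE intergenic libraries and 785, 786 and 794 CPM in SaABE NRF1 libraries. The corresponding SpABE values were 758, 766 and 804 CPM against 730, 722 and 735 CPM, and the SpCBE values were 822, 840 and 832 CPM against 746, 734 and 751 CPM. These groups were apart in each editor, and EIF4G1 fell by 0.12 with an SE of 0.016 (edgeR adjusted p = 1.5e-06). EIF4G2, a scaffold that lacks the eIF4E-binding part, and EIF4G3 had 0.00 and 0.01. In SpABE alone EIF4G2 passed, at 0.07 (edgeR adjusted p = 0.0201).

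The helicase gene EIF4A1 rose by 0.10 (edgeR adjusted p = 3.35e-06), with levels of 1112 to 1396 CPM under intergenic and 1227 to 1530 CPM under NRF1 guides. EIF4A2, its paralog, had a log2 fold change of 0.00 (edgeR adjusted p = 0.936). By editor it was 0.12 in SaABE, where EIF4A2 passed (edgeR adjusted p = 0.00535), -0.07 in SpABE and -0.04 in SpCBE. The helicase cofactors EIF4B and EIF4H rose by 0.09 and 0.09 (edgeR adjusted p = 0.000648 and 0.000129). The related helicase EIF4A3, which sits in the exon junction complex and not in eIF4F, rose by 0.11 (edgeR adjusted p = 0.000109).

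**Figure D2:**
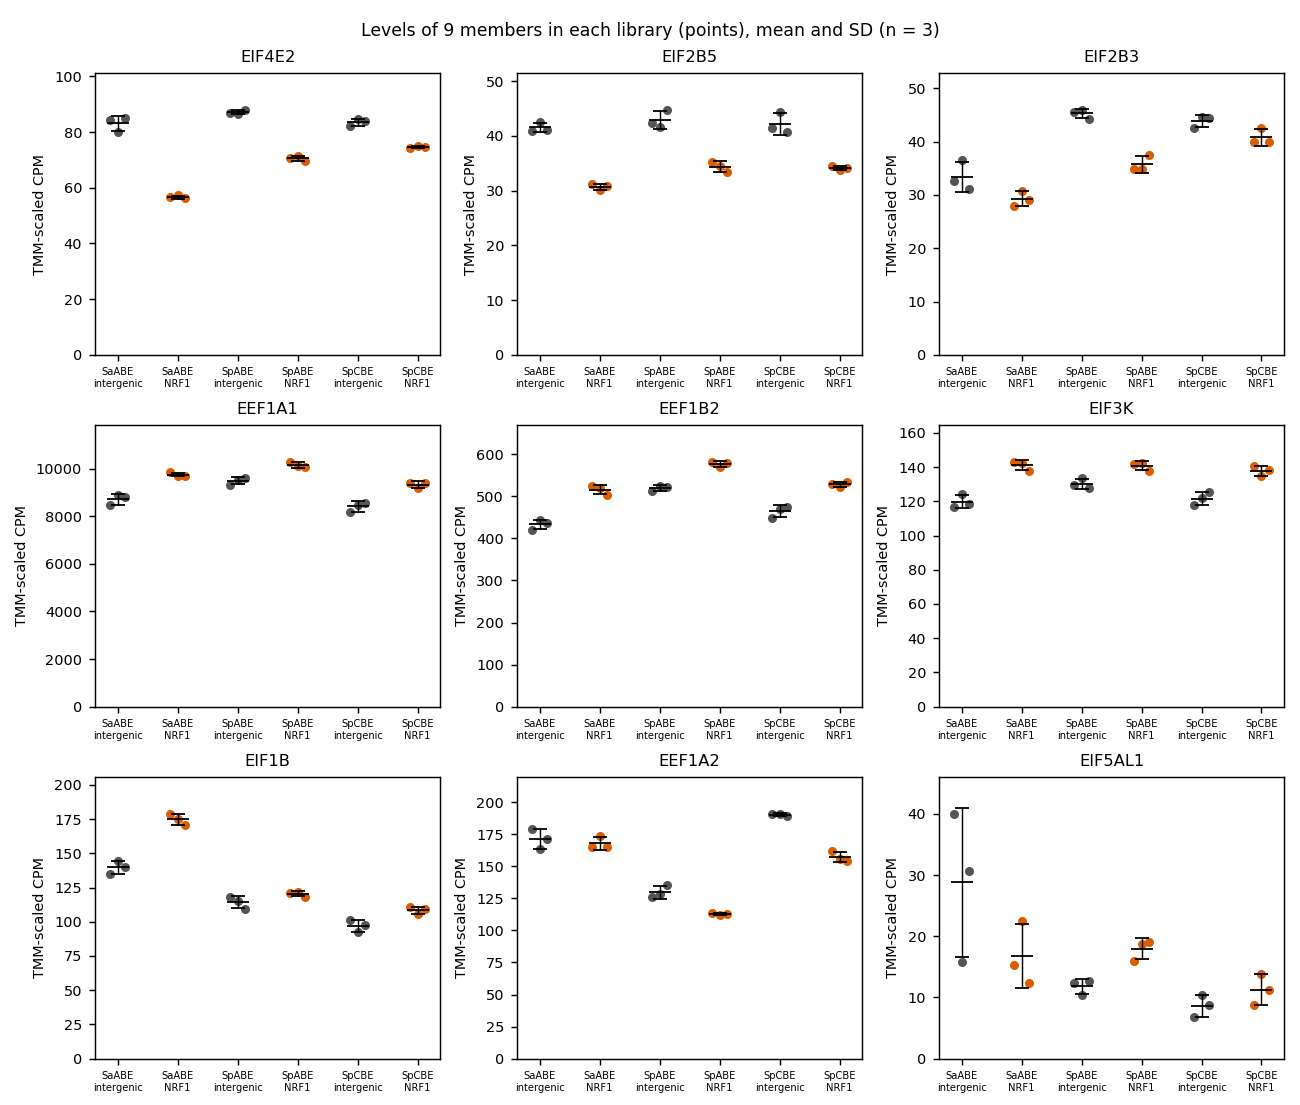
TMM-scaled CPM (y axis, from 0) of 9 members in the 18 libraries by editor and guide (x axis), grey for the intergenic and orange for the NRF1 guide, with the mean and SD of each 3. EIF4E2 and EIF2B5 lie lower in NRF1-guide libraries of every editor, EEF1A1, EEF1B2 and EIF3K lie higher, and the SaABE intergenic libraries of EIF5AL1 spread from 15.8 to 40.0 CPM.

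Of the group around eIF5A and eIF6, EIF5A2 and EIF6 rose. EIF5A, which carries hypusine and relieves stalls in elongation, lay at 836 to 1100 CPM and 900 to 1097 CPM and had a log2 fold change of 0.04 (edgeR adjusted p = 0.213). EIF5A2, its scarce paralog, lay at 16.3 to 18.1 CPM under the intergenic guides and 17.7 to 20.5 CPM under the NRF1 guides, and rose by 0.17 (edgeR adjusted p = 0.000182). EIF6, which holds the large subunit apart from the small one, rose by 0.13 (edgeR adjusted p = 0.000716).

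All 6 eEF1 genes passed, 5 of them higher, or 83.3% higher against 20.6% of all tested genes. EEF1A1 encodes the GTPase that delivers aminoacyl-tRNA and was the most abundant gene of the whole table by counts. Its levels were 8463, 8906 and 8797 CPM in SaABE intergenic libraries against 9836, 9709 and 9693 CPM with the NRF1 guide. With SpABE they were 9325, 9517 and 9625 CPM against 10283, 10105 and 10071 CPM, and with SpCBE 8167, 8491 and 8569.7 CPM against 9401, 9178 and 9412 CPM. The guides were apart within each editor, and EEF1A1 rose by 0.14 with an SE of 0.015 (edgeR adjusted p = 7.78e-08). Pseudogenes of EEF1A1 in the table held 1.12% to 1.81% as many counts as the gene itself.

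EEF1B2, the beta subunit of the exchange factor that recharges eEF1A, had 420, 443 and 436 CPM in SaABE controls against 525, 519.5 and 503.5 CPM with the NRF1 guide. In SpABE cells these were 511, 524 and 522 CPM against 582, 569.7 and 579 CPM, and with SpCBE 449.5, 471 and 475 CPM against 529, 522 and 535 CPM. No guide overlapped the other within an editor, and EEF1B2 rose by 0.20 with an SE of 0.018 (edgeR adjusted p = 4.79e-09). EEF1G, the gamma subunit that anchors the exchange complex, rose by 0.18 with an SE of 0.019 (edgeR adjusted p = 2.37e-08), from 2390 to 2648 CPM under the intergenic guides to 2689 to 3004 CPM under the NRF1 guides. The exchange subunit EEF1D and the synthetase-complex protein EEF1E1 rose by 0.06 and 0.09.

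EEF1A2, the form of eEF1A that is mainly used in muscle and neurons, went the other way and fell by 0.17 with an SE of 0.029 (edgeR adjusted p = 5.71e-05). In SpCBE cells its levels were 191, 191 and 189 CPM with the intergenic guide and 162, 156 and 155 CPM with the NRF1 guide, and in SpABE cells 126, 128 and 135 CPM against 114, 112 and 113 CPM. In SaABE cells the groups overlapped, at 179, 164 and 172 CPM against 165, 174 and 165 CPM. EEF2, the GTPase that moves the ribosome on by a codon, lay at 5238 to 5738 CPM with a median of 5443 under the intergenic guides and 5471 to 5867 CPM with a median of 5753 under the NRF1 guides, and rose by 0.08 with an SE of 0.016 (edgeR adjusted p = 0.000289).

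Of the 7 enzymes that modify elongation factors, 4 rose in the comparison over all 3 editors and none fell. The share that rose was 57.1%, against 20.6% of all tested genes. In single editors 0 of the 7 passed with SaABE, 2 with SpABE and 1 with SpCBE. These are 0%, 28.6% and 14.3% higher, against 16.9%, 15.4% and 11% of all tested genes. EEF1AKMT1, a lysine methyltransferase of eEF1A, had the largest rise of any member, 0.33 with an SE of 0.062 (edgeR adjusted p = 0.000126), from 4.62 to 6.32 CPM under intergenic to 6.03 to 7.90 CPM under NRF1 guides, which overlapped. EEF1AKMT4 and EEF1AKNMT, which also methylate eEF1A, rose by 0.18 and 0.12 (edgeR adjusted p = 0.00696 and 0.000323), and EEF2KMT, which methylates eEF2, rose by 0.17 (edgeR adjusted p = 0.002). EEF1AKMT4 and EEF2KMT passed in no single editor, nor without the editor term (edgeR adjusted p = 0.0801 and 0.0881). ALG1 overlaps EEF2KMT on the opposite strand with 142% as many counts. EEF2K, the kinase that inhibits eEF2, had -0.03 (edgeR adjusted p = 0.563).

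The 4 tested genes that only share the prefix, EIF1AD, EIF1B-AS1, EIF2AK3-DT and EIF3J-DT, did not pass, with log2 fold changes of 0.03, 0.13, -0.14 and -0.12. The 5 members left out by the filter on low counts were EEF1AKMT4-ECE2, EEF1E1-BLOC1S5, EIF1AX-AS1, EIF1AY and EIF4E1B. EIF4E1B, a germline relative of eIF4E, reached at most 0.0914 CPM, and the readthrough genes EEF1AKMT4-ECE2 and EEF1E1-BLOC1S5 at most 0.253 and 0.283 CPM.

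Paralogs stood at very different levels when CPM were divided by the length of the canonical transcript in kilobases. In intergenic-guide cells EEF1A1 had 2527 ± 146 CPM per kilobase (SD, n = 9) and EEF1A2 92.4 ± 15.4. EIF4A1 had 724 ± 61.6 and EIF4A2 146 ± 13.4 CPM per kilobase, and EIF5A had 779 ± 68.8 against 3.11 ± 0.134 for EIF5A2. In each of these 3 pairs the lowest library of the first gene was above the highest of the second. EIF1 had 396 ± 24.1 and EIF1B 119 ± 19.3 CPM per kilobase.

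Among the eIF4E genes the order was EIF4E2 at 87.5 ± 2.54, EIF4E at 45.8 ± 3.47 and EIF4E3 at 4.115 ± 0.475 CPM per kilobase (SD, n = 9). EIF4E2 ranged from 58.1 to 90.9 and EIF4E from 40.0 to 50.7 CPM per kilobase over all 18 libraries, so EIF4E2 was above EIF4E in every library, also where it had fallen. This order rests on a canonical transcript of 967 bases for EIF4E2 against 2427 bases for EIF4E, and by CPM alone EIF4E was the higher. Of the scaffolds, EIF4G2 had 323 ± 12.8, EIF4G1 151 ± 6.55 and EIF4G3 22.6 ± 1.61 CPM per kilobase, with no overlap among their 18 libraries.

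In single editors the same direction prevailed, with sizes that differed. Of 64 members 30 rose and 6 fell with SaABE, or 46.9% and 9.38%, where 16.9% of all tested genes rose and 15.5% fell. With SpABE 25 rose and 9 fell, or 39.1% and 14.1% against 15.4% and 17.3% of all genes. With SpCBE 21 rose and 4 fell, or 32.8% and 6.25% against 11% and 12% of all genes, and 39.1% of members passed in either direction against 23.1%. Without scaling beyond total counts, 22, 16 and 17 members rose and 7, 11 and 5 fell in that order of editors. The sign was positive in all 3 editors for 36 members and negative in all 3 for 9, a count that was not made over all genes.

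**Figure D3:**
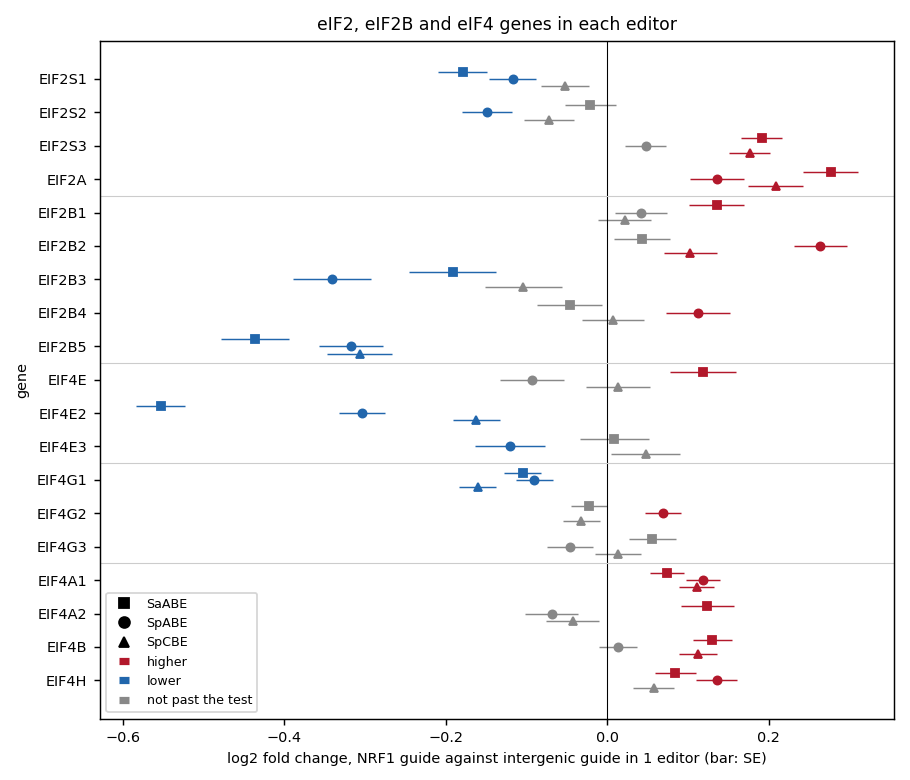
Log2 fold change with the NRF1 guide in each editor (x axis) for 19 genes of eIF2, eIF2B and eIF4 (y axis), with bars for the SE, squares for SaABE, circles for SpABE and triangles for SpCBE, coloured by the test at an adjusted p under 0.05. EIF2B5, EIF4E2 and EIF4G1 are blue in all 3 editors, and EIF4E2 runs from -0.55 in SaABE to -0.16 in SpCBE.

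Past the fold threshold, EIF4E2 and EIF5AL1 were called in SaABE, EIF5AL1 in SpABE and no member in SpCBE, where edgeR gave 31 members an unadjusted p under 0.05, none past the fold, and DESeq2 called 0. These rules called 6.05%, 6.41% and 4.45% of all genes. EIF4E2 in SaABE cells was at -0.55 on the log2 scale (SE 0.031, edgeR adjusted p = 4.05e-13), while SpABE gave -0.30 and SpCBE -0.16 (edgeR adjusted p = 8.35e-09 and 0.000136). The difference itself was tested: the effect was larger in SaABE than in SpABE by a log2 value of -0.25 and than in SpCBE by -0.39 (edgeR adjusted p = 0.000332 and 2.39e-06).

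EIF5AL1 is an intronless copy of EIF5A on another chromosome, which shares 3.83% of its 100-base stretches with EIF5A, and its counts may include reads of the parent. Its levels were 40.0, 15.8 and 30.6 CPM in SaABE intergenic libraries against 15.4, 22.5 and 12.4 CPM with the NRF1 guide. In SpABE cells they were 12.4, 10.3 and 12.7 CPM against 16.0, 18.7 and 19.1 CPM, and with SpCBE 6.80, 10.3 and 8.81 CPM against 8.77, 13.8 and 11.3 CPM. The SaABE groups overlapped, and the controls of SaABE spread most.

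EIF5AL1 changed by -0.80 (SE 0.22) on the log2 scale in SaABE and by 0.61 (SE 0.23) in SpABE (edgeR adjusted p = 0.00744 and 0.0488). The SaABE call was lost without SaABE intergenic replicate 1 (-0.49, edgeR adjusted p = 0.103) or without SaABE NRF1 replicate 3 (-0.61, edgeR adjusted p = 0.0637). The SpABE call was lost when any 1 of its 6 libraries was left out, with log2 fold changes of 0.52 to 0.68, and with replicate number as a block (edgeR adjusted p = 0.0581). DESeq2 gave 0.121 as its adjusted p in SpABE.

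Differences between the editors' effects, which share libraries with the comparisons above, passed for 15 members between SaABE and SpABE, 12 of them higher and 3 lower in SaABE, where 23.4% of members passed against 11.7% of all genes, 6.37% higher and 5.33% lower. Only EIF5AL1 was called there, and the rule called 1.56% of all genes. Between SaABE and SpCBE 6 members were higher and 1 lower, 10.9% against 4.09% of all genes, which were 2.02% higher and 2.07% lower. Between SpABE and SpCBE 3 were higher and 4 lower, 10.9% against 8.96% of all genes, which were 4.54% higher and 4.42% lower. No member was called in the last 2 comparisons, where the rule called 0.614% and 1.43% of all genes, edgeR gave 17 and 15 members an unadjusted p under 0.05 and DESeq2 called 0 in both. With the replicate number as a block, 6 members were higher between SaABE and SpABE, and 1 was higher and 2 were lower between SpABE and SpCBE. EIF1B showed this in its levels, at 135, 144 and 140 CPM in SaABE controls against 179, 175 and 171 CPM with the NRF1 guide, but 118, 115 and 110 CPM against 121, 122 and 118 CPM in SpABE. The SaABE groups were far apart and the SpABE groups nearly touched. Its log2 fold change was 0.32 in SaABE, 0.08 in SpABE and 0.16 in SpCBE, and the difference between SaABE and SpABE was 0.25 (edgeR adjusted p = 0.00186).

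The intergenic controls of the 3 editors also differed from each other, with no NRF1 guide present. In SaABE against SpABE controls 10 members were higher and 28 lower, or 15.6% and 43.8% against 19.3% and 19.1% of all genes, and 59.4% passed in either direction against 38.4%. SaABE against SpCBE gave 19 higher and 16 lower, where all genes gave 20.1% and 20.6%, or 54.7% in either direction against 40.6%. SpABE against SpCBE gave 26 higher and 6 lower, where all genes gave 17.7% and 17.8%. Without scaling the SaABE against SpCBE split was 12 higher and 32 lower. SaABE and SpABE share the deaminase and differ in the nickase and its plasmid, SpABE and SpCBE share the nickase and differ in the deaminase and its plasmid, and SaABE and SpCBE differ in both enzymes. Each editor also had its own NRF1 and intergenic plasmids, so the guide and its target site may differ as well. Within each comparison, what differs cannot be told apart, and this holds for the differences between the editors' effects too.

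Called members among the controls were few, at 2, 4 and 3 in the order above, against 7.03%, 8.04% and 6.19% of all genes. EEF1A2 was lower in SpABE than in SpCBE controls by a log2 value of -0.55 (edgeR adjusted p = 5.79e-12), with its 3 control groups standing apart at the levels given above. EIF1B was higher in SaABE than in SpCBE controls by 0.53 (edgeR adjusted p = 2.23e-11). EIF5AL1 was higher in SaABE controls than in SpABE and SpCBE controls by 1.29 and 1.73 (edgeR adjusted p = 7.27e-05 and 2.48e-06). The other calls were on genes under 4 CPM: EIF2S3B was higher in SaABE and in SpABE than in SpCBE controls, by 0.65 and 0.70, EIF1B-AS1 was lower in SaABE than in SpCBE controls, at -0.93, and EIF2AK3-DT was higher in SpABE than in SaABE and SpCBE controls.

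The factor genes took a larger share of all counts with the NRF1 guide in each editor. With SaABE the share was 3.17% to 3.19% for the intergenic and 3.35% to 3.36% for the NRF1 guide, in SpABE 3.39% to 3.48% and 3.56% to 3.596%, and in SpCBE 3.29% to 3.35% and 3.45% to 3.51%, with no overlap within an editor. EEF1A1 alone made up 0.835% to 1.01% of the counts of a library. The cytosolic ribosomal protein genes held 7.82% to 8.10% and then 8.74% to 8.98% of counts in SaABE, 8.41% to 8.69% and 9.33% to 9.37% in SpABE, and 7.99% to 8.41% and 8.82% to 9.10% in SpCBE, and 80 of the 86 tested rose. The 10 most abundant genes are not independent of these counts. Over all libraries together they include EEF1A1, EEF2 and EEF1G beside the heat-shock genes HSPA1B, HSP90AA1, HSP90AB1 and HSPA8, the actin gene ACTG1 and the ribosomal protein genes RPS2 and RPL4. The shares were summed over the top 10 of each library, which need not be these same genes. They were 5.86% to 6.05% against 6.39% to 6.61% in SaABE, 4.59% to 4.67% against 5.05% to 5.17% in SpABE, and 3.86% to 3.90% against 3.97% to 4.10% in SpCBE. The part of these shifts in the members' changes was not tested. In such bulk samples a change per cell and a change in the mix of cells cannot be told apart.

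**Figure D4:**
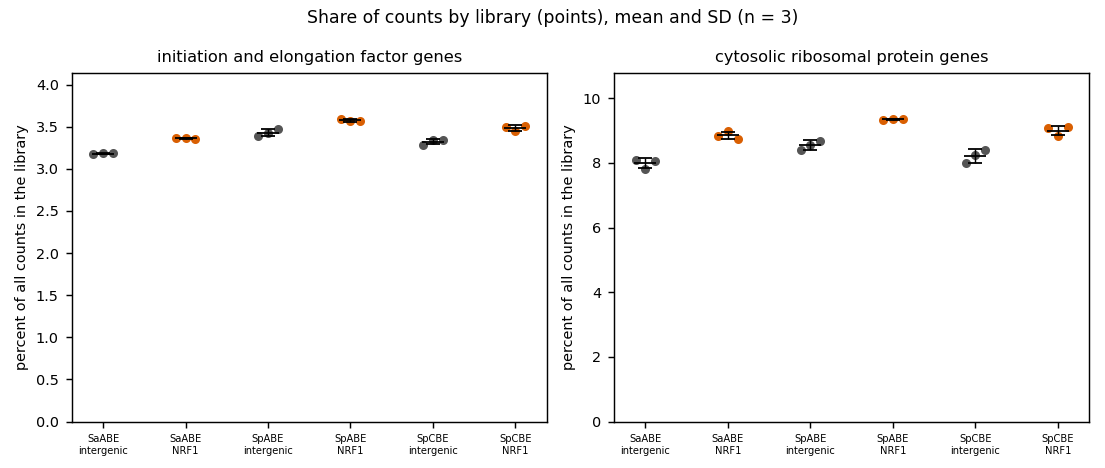
Percent of all counts in a library (y axis, from 0) from the 69 initiation and elongation factor genes (left) and the cytosolic ribosomal protein genes (right), by editor and guide (x axis), with points for libraries and bars for the mean and SD of 3. In both panels each orange NRF1-guide group lies above the grey intergenic-guide group of its editor.

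Members were also counted by the start of their transcript. A pyrimidine run at the start, as spelt out above, was found in 13 tested members, of which 10 rose and none fell, with a median log2 fold change of 0.12. Of the 39 other tested members with a listed promoter 18 rose and 5 fell, with a median of 0.06. Over all genes, 4.07% of the promoters hold the run. Counted by gene as for the members, 7.07% of the tested genes with a listed promoter hold it. Of these tested genes 31.6% of those with the run rose against 23.3% of those without. The 9 classical TOP mRNAs among the factors all rose, with a median of 0.14, in a list chosen with results of these data known. The 3 members with the NRF1 element, EIF2A, EIF3K and EIF4H, rose by 0.21, 0.18 and 0.09, as did 25 of the 49 tested members with a promoter that lacks it. Over all tested genes with a listed promoter, 11.4% of the 691 with the element rose against 24.7% of those without.

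Genes that act on the factors gave a mixed picture. Of the 9 genes for eIF2 kinases and phosphatase subunits 2 rose and 1 fell over all 3 editors, or 22.2% and 11.1%. Among all tested genes 20.6% rose and 18.8% fell, so this list did not rise more often than the whole table by much. PPP1CB, a catalytic subunit of the phosphatase, fell by 0.21 and PPP1CA, another, rose by 0.16 (edgeR adjusted p = 1.14e-06 and 0.000516). Of the 13 regulators of cap binding and mTOR signalling 4 rose and 4 fell, or 30.8% in each direction. The largest change was in RPS6KB1, the S6 kinase that mTOR activates, at 105 to 112 CPM in the 9 intergenic-guide libraries and 47.1 to 54.7 CPM in the 9 NRF1-guide libraries. The groups were far apart, and RPS6KB1 fell by 1.11 on the log2 scale with an SE of 0.023 (edgeR adjusted p = 7.24e-21). MKNK1, a kinase of eIF4E, fell by 0.27 (edgeR adjusted p = 5.25e-07). Of the eIF4E-binding proteins EIF4EBP1 rose by 0.21 (edgeR adjusted p = 7.07e-06), while EIF4EBP2 had -0.02 and EIF4EBP3 0.63 with an adjusted p of 0.283 in edgeR.

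The poly(A)-binding group had 4 of 5 higher and none lower, with a median of 0.14. By share, 80% rose here, 50% of the termination list, 33.3% of the hypusine and diphthamide list and 75% of the exon junction list. Among all tested genes 20.6% rose. PAIP2B, an inhibitor of poly(A)-binding protein, rose by 0.28 and PABPC4, a poly(A)-binding protein, rose by 0.18 (edgeR adjusted p = 1.9e-09 and 5.92e-09). Of the 8 termination, recycling and rescue genes 4 rose and none fell, with ABCE1, the ATPase that splits ribosomes, at 0.15 and MCTS1, a recycling factor, at 0.12 (edgeR adjusted p = 8.17e-06 and 0.00012). Of the 9 genes for hypusine and diphthamide synthesis 3 rose and 1 fell, led by DPH6 at 0.47 and DPH3 at 0.16 (edgeR adjusted p = 6.59e-08 and 1.2e-06), both of the diphthamide pathway that modifies eEF2. Of the 4 exon junction partners of EIF4A3, 3 rose, among them MAGOH by 0.16 and CASC3 by 0.09 (edgeR adjusted p = 1.95e-06 and 0.000179).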

How the data were processed

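Polyadenylated RNA was measured in 18 HEK293T libraries, 6 groups of 3 by editor and guide. The authors trimmed reads with Cutadapt 1.18, mapped them with STAR 2.7.0f to hg38 and GENCODE transcripts, and deposited estimated counts per gene, not normalized, of which 19.63% of nonzero values were not whole. How and with which strand setting reads were counted is not given in the sources used here. DESeq2 1.46.0 is also listed in the processing notes of the submitters. Of the 36 sample columns, 18 were not used here. Estimated counts were rounded to whole numbers, as had been planned for counts of this kind. They were filtered by edgeR's filterByExpr (17743 genes kept), scaled by TMM and tested with edgeR 4.0.16 under R 4.3.3. Adjusted p values are Benjamini-Hochberg over all genes tested. Higher and lower mean an adjusted p under 0.05, and called adds an absolute log2 fold change over 0.5. The comparison over all 3 editors had an additive editor term (9 against 9 libraries). Each editor's effect, the differences between effects and the control comparisons came from 6 group means. DESeq2 1.42.0 was an alternative. Levels are TMM-scaled CPM. Depth was 28101094 to 40687447 counts per library, so for most members the spread between libraries and not counting sets the error, and biological coefficients of variation were 4.37% and 3.10%.

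The labels do not say whether replicates were separate cultures, so p values rest only on the spread between libraries of a group, and that spread may be technical. All pairs within a group differed by more than sampling noise. In SpABE, libraries with the same replicate number deviated together from their group means. The correlations were 0.158, 0.113 and 0.126 over 8871 genes, all over 0.1. Reading these numbers as pairs comes from the data. The main tests paired no libraries, and the replicate number was a block only in another setting, for all 3 editors. In simulated counts with 17369 genes tested, the comparison over all 3 editors found 78% of the genes set to change 1.1-fold and 100% at 1.25-fold, and the SaABE comparison found 24% and 92%. The simulation gave every gene the same spread, smaller than the 4.37% measured over all 3 editors. It had no differences between editors and changed no genes at low CPM. The real comparison may therefore find fewer, and these shares do not cover low members.

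The members were picked by symbol alone, but that symbol rule, the roles and the gene lists were set with earlier results of these data known. Counts by role or by list are thus not independent support. Named were members called over all 3 editors or in an editor, up to 4 per role by smallest p, up to 3 called in each other comparison, fixed paralog sets and up to 2 genes per list. Further eIF2, eIF2B, eIF3, eIF4, eIF5B, eEF1 and EEF2K members, the eIF4E-binding proteins and those left untested were named for completeness. Transcript lengths and overlaps are from GENCODE 44, promoters from RefSeq (GRCh38.p14).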

Additional observations from a re-analysis of the deposited data

Results flagged for a closer look

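The effect of the NRF1 guide differed between editors, by the test of the difference itself in edgeR at an adjusted p under 0.05, for the members given here as differences of log2 fold changes. The comparisons share libraries, and 11.7%, 4.09% and 8.96% of all genes passed in SaABE minus SpABE, SaABE minus SpCBE and SpABE minus SpCBE. SaABE minus SpABE was highest for EIF1B at 0.25, EIF4E at 0.21, EEF1E1 at 0.21, EIF4A2 at 0.19, EIF5B at 0.19 and EIF3C at 0.18. It was 0.17 for EEF1A2, 0.16 for EIF1AX, 0.14 for EIF2S3, 0.13 for EIF4A3, 0.13 for EIF5 and 0.12 for EIF4B. It was -1.41 for EIF5AL1, -0.25 for EIF4E2 and -0.22 for EIF2B2. For EIF5AL1 the value ran from -1.70 to -1.10 when single libraries were left out, and its SaABE and SpABE groups moved in opposite directions.

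SaABE minus SpCBE was 0.28 for EIF3CL, 0.24 for EEF1A2, 0.22 for EIF5, 0.20 for EIF3J, 0.17 for EIF4A2, 0.15 for EIF1 and -0.39 for EIF4E2. SpABE minus SpCBE was 0.16 for EIF2B2, 0.14 for EIF1, 0.10 for EIF4G2, -0.13 for EIF2S3, -0.14 for EIF4E2, -0.16 for EIF3C and -0.24 for EIF2B3. EIF4E2 was the member whose effect differed in all 3 of these comparisons.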

How the results depend on the processing

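Over all 3 editors, 34 to 37 members were higher and 7 to 8 lower when single libraries were left out. Dropping the editor term gave 17 higher and 4 lower, and a fit on the 6 libraries of SpCBE gave 7 lower. With no scaling factor, SpABE had 16 higher and 0 called, the SaABE against SpCBE controls had 12 higher and 32 lower, and the SpABE against SpCBE controls 10 lower. DESeq2 and the replicate block also gave 0 called in SpABE. With the block, SaABE minus SpABE had 6 higher, and SpABE minus SpCBE had 1 higher and 2 lower. The block changed no other count by over 1.5 times. In SaABE and SpCBE same-numbered libraries had correlations of -0.388 to -0.070 and 0.031 to 0.102 and share only a number. The cause of these changes was not tested, beyond the fewer libraries or added terms of a fit.

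With single libraries left out, called members numbered 1 to 2 in SaABE, 0 to 0 in SpABE and 0 to 1 in SpCBE. SaABE minus SpABE had 5 to 18 higher and 3 to 5 lower, SaABE minus SpCBE 2 to 8 higher, 1 to 3 lower and 0 to 1 called, and SpABE minus SpCBE 1 to 5 higher and 0 to 4 lower, so these counts rest on few libraries.

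Of 1353 values of named members under other settings 1292 held their direction and side of the threshold and 30 kept their direction but no longer passed, 13 of them without the editor term, where their log2 fold changes moved by at most 0.014. Another 31 changed sign, none of them past the test: without scaling EIF2S3B -0.008, EIF4A2 -0.023, EIF4E -0.015, EIF4G2 -0.022, EIF4G3 -0.019 and EIF5AL1 -0.001, and without the editor term EIF5AL1 -0.095. With single libraries left out these ran from -0.041 to 0.075 for EIF2S3B, -0.011 to 0.019 for EIF4A2, -0.012 to 0.022 for EIF4E, -0.002 to 0.011 for EIF4G2 and -0.047 to 0.188 for EIF5AL1. Depth limits EIF2S3B, EIF1B-AS1 and EIF2AK3-DT, at under 4 CPM.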
